A study of Mus musculus with 8 samples.

Results

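Heme synthesis and iron uptake were followed through 9 genes in hearts of mouse embryos with and without dopamine beta-hydroxylase. The genes were Alas1, Alas2, Alad, Uros, Urod, Cpox, Ppox and Fech, which code for enzymes of the heme pathway, and Tfrc, the transferrin receptor. All probe sets that the array annotation gives to these symbols or their synonyms were taken, which made 20 of the 22690 probe sets of the array. Of these, 16 were tested. The others were 3 array control probe sets for Tfrc and a Fech probe set called Present on 1 of 8 arrays. Whole hearts at this stage hold muscle, endocardium and the blood inside the chambers.

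Heme is built in steps shared between the mitochondrion and the cytosol, and the first step, the joining of glycine and succinyl-CoA, sets the pace. Most tissues use the housekeeping enzyme Alas1 for it, while developing red cells use the erythroid enzyme Alas2. The later enzymes serve both, and red cell precursors, which make hemoglobin, carry much of all of them together with Tfrc, which brings in iron bound to transferrin.

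Each of 8 Affymetrix Mouse 430A 2.0 arrays held RNA of 1 heart at E10.5, taken after age and size matching. The 4 Dbh-/- hearts (KO) came from embryos without the enzyme that turns dopamine into noradrenaline, and the 4 Dbh+/+ hearts (WT) were the controls. The lack of the gene was in the whole embryo. Strain, sex and treatment are not given in the labels used here. The deposited values are linear MAS5 signals with no common scaling visible. Log2 differences below are KO minus WT on log2(signal + 16), with their standard error (SE) from limma, and they understate the change of low signals.

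The Dbh probe set was called Absent on 8 of 8 arrays, with signals of at most 10.9, which leaves the genotype labels unchecked by these arrays. The share of Present calls lay between 65.2% and 71.6%, and trimmed mean signals between 209.9 and 316.3. Sample titles carry the number 541 (both hearts numbered 3 and both numbered 4), 569 (KO 1, KO 2 and also WT 2) or 570 (WT 1), whose meaning the labels do not give. The heart WT 3 stood apart. It had an Afp signal of 3396 against at most 29.1 in the other hearts, and a Ttr signal of 1964 against at most 49.1, both being genes of liver and yolk sac endoderm. It also had the lowest heart muscle score and the highest macrophage and megakaryocyte scores. Genotype differences of the members are therefore given with and without it, but correlations were not computed without it.

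No member was shown to differ between the genotypes, with 0 of 16 tested probe sets called by limma, against 0% of all 16292 tested. Alas2 had the largest difference, about 2.29 times the WT mean in KO hearts, but it varied so widely among hearts of either genotype that the groups overlapped. With each gene taken by its brightest probe set, log2 differences were 0.50 to 0.67 for Alad, Urod, Ppox and Fech, 0.21 for Alas1 and -0.04 for Tfrc, and none passed the test. Across the 8 hearts, Alas2, Ppox and Fech were correlated with a score of red cell markers past the threshold on quantile-normalized signals. On signals as deposited only Alas2 was. The test behind these calls takes the hearts as exchangeable and ignores the title numbers that some of them share. Uros, Urod and Alad missed the threshold with correlations of 0.945 to 0.953, and Cpox, Tfrc and Alas1 missed it too.

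Alas2, on the X chromosome, had signals of 94.2, 44.8, 629 and 259 in WT 1 to WT 4 and of 78.3, 436, 1267 and 565 in KO 1 to KO 4. The highest KO heart stood 28.3-fold above the lowest WT heart, yet KO 1 was below 3 of the 4 WT hearts and WT 3 was above 3 of the 4 KO hearts. KO hearts had a mean of 586 ± 498 and WT hearts of 257 ± 264 (SD, 4 hearts per group), a log2 difference of 1.19 ± 0.54 (SE) with a 95% confidence interval of 0.09 to 2.28. The adjusted p in limma was 0.99998, and the unadjusted p was 0.0352. Its SD over the 8 hearts was 1.49 on the quantile-normalized log2 scale, above that of 99.8% of tested probe sets, whose median was 0.255.

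The call of Alas2 depended on WT 3 and KO 1. Without WT 3 it was 1.78 with an adjusted p of 0.000674 in limma, in a fit that called 72 of 16292 probe sets (0.442%). Without KO 1 it was 1.91 with an adjusted p of 0.0269, in a fit that called 30 (0.184%). With all 8 hearts 0 of 16292 were called (0%), and 1.33% had an unadjusted p below 0.05. After quantile normalization the difference was 1.18 ± 0.79, and leaving out any 1 heart gave values from 0.66 to 1.80 with no adjusted p below 0.863. The other hearts moved it as well, down to 0.65 without WT 2 or KO 3 on the deposited scale. With the title number as a block it was 1.33 (adjusted p = 0.0622 in limma), in a fit with infinite prior degrees of freedom. Quantile-normalized signals gave 1.26 with the same block (adjusted p = 0.970 in limma). Within number 541 the deposited signals gave 1.04 and within number 569 they gave 1.76. The authors' deposited table gives Alas2 a fold size of 2.29, higher in KO, with a p-value of 0.300.

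Alas1, on chromosome 9, was a low signal in all hearts. Its brighter probe set (1424126_at) read 58.3, 50.5, 28.1 and 26.97 in WT 1 to WT 4 and 37.4, 60.0, 61.5 and 37.6 in KO 1 to KO 4. The groups overlapped. KO 3 was the highest heart for both genes, but WT 3, second for Alas2, was next to last here. The log2 difference was 0.21 ± 0.27 (SE, n = 4 each). The other probe set (1455282_x_at), of a design whose probes may also match other transcripts, ran from 14.5 to 71.4 and had a difference of 0.31 ± 0.29. The SD over hearts of the brighter probe set was 0.24, near the median of all tested probe sets.

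The difference between the erythroid and the housekeeping enzyme within each heart is less open to a scaling shared by the array, though the pseudocount keeps it from cancelling such a factor fully. On the log2(signal + 16) scale, Alas2 minus Alas1 was 0.57, -0.13, 3.87 and 2.68 in WT 1 to WT 4 and 0.82, 2.57, 4.05 and 3.44 in KO 1 to KO 4. WT 1, WT 2 and KO 1 had the 3 lowest values, and the other 5 hearts, of both genotypes, lay from 2.57 to 4.05. The KO mean was 2.72 ± 1.40 and the WT mean 1.75 ± 1.85 (SD, n = 4 each), and their difference of 0.97 had a two-sided exact permutation p of 0.4, the smallest possible being 0.0286. Leaving out 1 heart at a time gave differences from 0.35 to 1.68, with exact p from 0.171 to 0.714. Each probe set has its own scale, so only the change of this value between hearts can be read, not its sign.

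**Figure D1:**
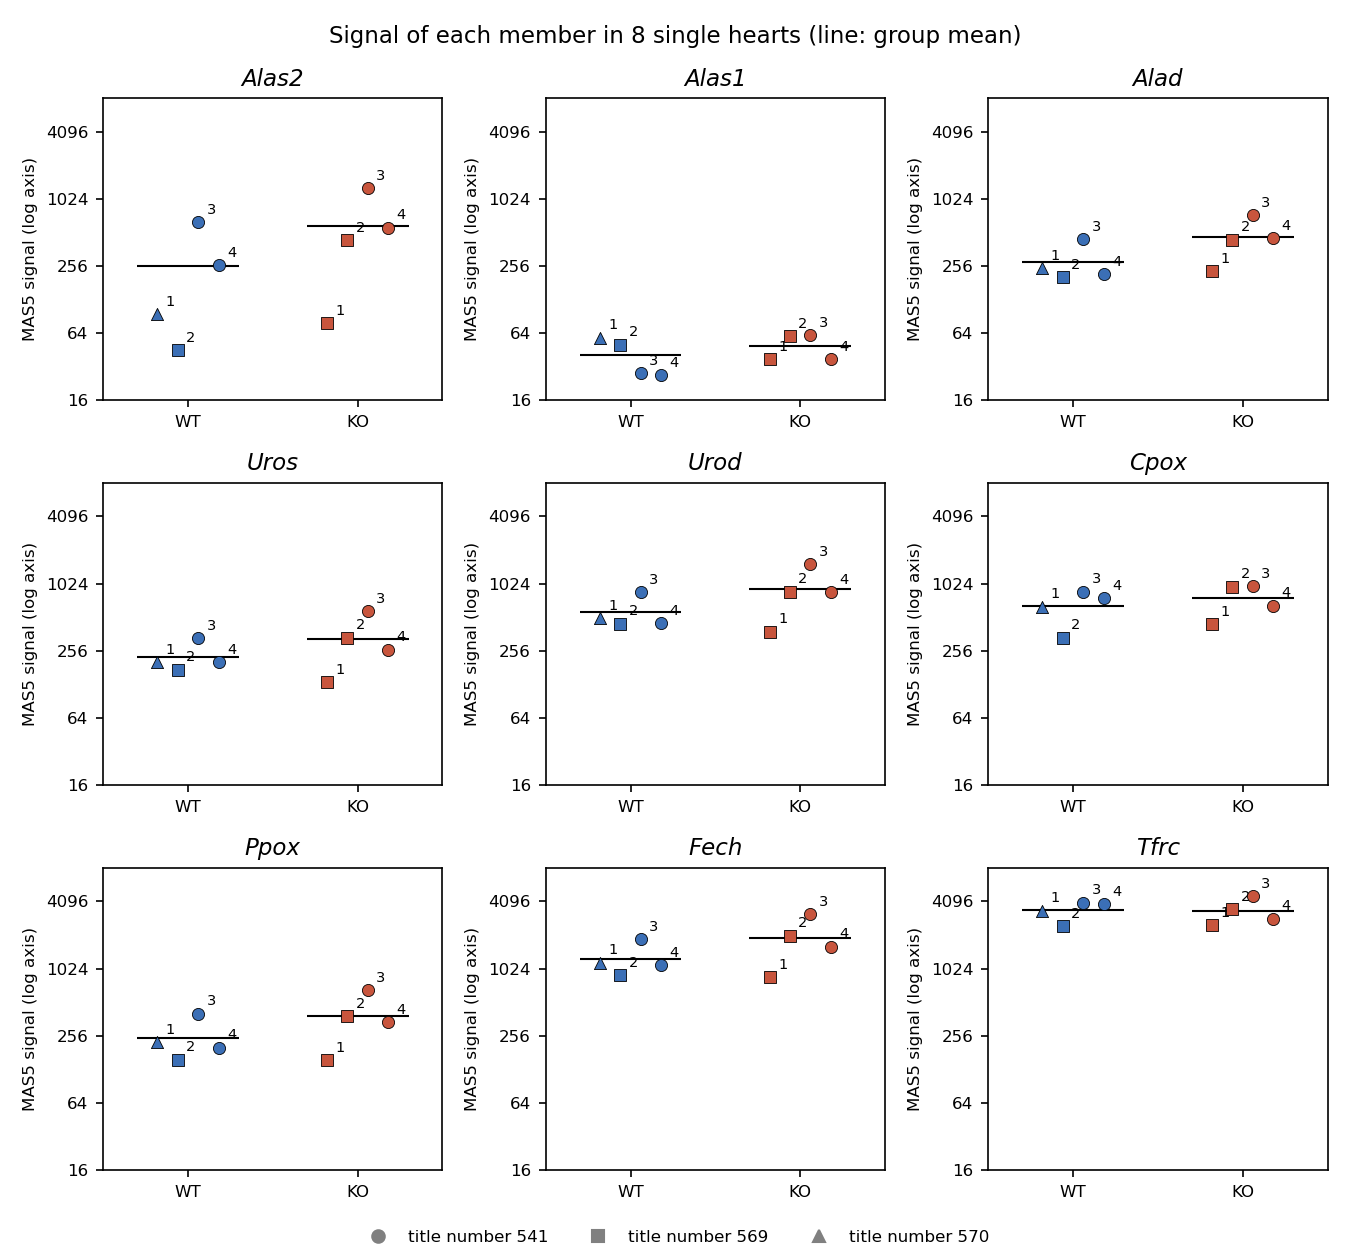
MAS5 signal on a log axis for the brightest probe set of each of the 9 genes, with 4 WT and 4 KO hearts numbered by replicate, the symbol giving the title number and the line the group mean. Alas2 spans 44.8 to 1267 across hearts, while Tfrc spans 2459 to 4539, and the groups overlap in every panel.

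The bases just upstream of both genes are shown for the motifs they hold or lack, whose part in the signals was not tested. RefSeq windows (GRCm38.p6) of 250 bases before each transcript start were searched on both strands for GATAA, the core bound by GATA factors, and for CACCC, the core bound by Klf factors such as Klf1. Capitals mark both matches and their reverse complements (TTATC and GGGTG). The Alas2 window is chrX:150547167-150547416 on the plus strand, and the Alas1 window is chr9:106247955-106248204 on the minus strand.
Alas2: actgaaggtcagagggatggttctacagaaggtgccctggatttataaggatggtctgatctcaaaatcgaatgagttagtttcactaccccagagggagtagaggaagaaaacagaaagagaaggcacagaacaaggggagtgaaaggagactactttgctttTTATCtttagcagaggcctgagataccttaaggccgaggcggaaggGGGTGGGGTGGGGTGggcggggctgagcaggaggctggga
Alas1: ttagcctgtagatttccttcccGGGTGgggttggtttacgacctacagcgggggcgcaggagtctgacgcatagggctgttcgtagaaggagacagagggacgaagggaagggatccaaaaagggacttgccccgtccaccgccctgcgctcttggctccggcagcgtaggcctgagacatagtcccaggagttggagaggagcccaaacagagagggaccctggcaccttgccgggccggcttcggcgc
The Alas2 window holds 1 GATAA match, starting 86 bases before the transcript start, and 3 CACCC matches that follow each other from 40 to 30 bases before it. The Alas1 window shown holds a single CACCC match, 228 bases before the start, and no GATAA. The window of the other annotated Alas1 start, not shown, also holds a single CACCC match, 203 bases before that start, and no GATAA. Of all 32817 windows of this length, 22.6% hold GATAA, 52.0% hold CACCC and 10.1% hold both, so such matches are frequent. A match is a run of letters, not a site shown to be bound.

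The later steps are run by the same genes in red cells and in other tissues. Alad, which joins 2 molecules of aminolevulinate into porphobilinogen, read 246, 204, 443 and 217 in WT 1 to WT 4 and 228, 440, 727 and 455 in KO 1 to KO 4. KO 3 and KO 4 were the highest hearts, but WT 3 was above KO 2, and KO 1 was below WT 1. The log2 difference was 0.67 ± 0.33 (SE) with a 95% interval from -0.00 to 1.33, the second largest of the members. It was 0.95 without KO 1 (adjusted p = 0.419 in limma) and 0.42 without KO 3.

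Uros closes the porphyrin ring, and its signals were 202, 174, 332 and 202 in WT 1 to WT 4 and 135, 336, 580 and 262 in KO 1 to KO 4. KO 1 was the lowest heart of all, and the log2 difference was 0.37 ± 0.34 (SE), with 0.05 without KO 3 and 0.71 without KO 1. Urod removes carboxyl groups from the ring, and its signals were 505, 448, 856 and 453 in WT hearts and 379.9, 871, 1536 and 865 in KO hearts, in the same order. KO 2 and KO 4 were close to WT 3, the other WT hearts were lower, and KO 1 was lowest. On the log2 scale the difference was 0.57 ± 0.32, with 0.27 without KO 3 and 0.93 without KO 1.

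Cpox, the next oxidase of the pathway, did not follow the same order. Its brighter probe set (1422492_at) read 637, 336, 870.0 and 758 in WT 1 to WT 4 and 444, 961, 979 and 651 in KO 1 to KO 4. WT 3 and WT 4 were above KO 4, and the log2 difference of 0.23 ± 0.31 turned to -0.05 without WT 2 and to -0.02 within title number 541. A dimmer probe set (1422493_at), called Present on 6 arrays, ran from 11.5 to 56.8 with a difference of 0.30 ± 0.27. Ppox, which makes protoporphyrin, read 223, 156, 405 and 201 in WT 1 to WT 4 and 154, 384, 655 and 339 in KO 1 to KO 4 with its brighter probe set (1416618_at). KO 3 was highest and KO 1 lowest, and the difference was 0.53 ± 0.35, with 0.22 without KO 3 and 0.88 without KO 1. Its dimmer probe set (1448065_at) had a smaller difference of 0.22 ± 0.31.

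Fech inserts iron into protoporphyrin and so ends the pathway. Its brightest probe set (1418699_s_at) read 1159.6, 898, 1869 and 1098 in WT 1 to WT 4 and 858, 2023, 3152 and 1605 in KO 1 to KO 4. As for Ppox, KO 3 was highest and KO 1 lowest, with WT 3 among the KO hearts. The log2 difference was 0.50 ± 0.29 (SE), and the other tested probe sets gave 0.44 ± 0.29 (1418698_a_at) and 0.52 ± 0.34 (1449181_at), so the 3 differed by less than their SE. That of the brightest was 0.22 without KO 3 and 0.84 without KO 1. The probe set called Present on 1 array (1427696_at) lay between 0.84 and 12.3.

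Windows of 3 of these genes are shown for the motifs they hold or lack. They are the second RefSeq start of Uros (chr7:133702501-133702750, minus strand), Cpox (chr16:58669958-58670207, plus strand) and Ppox (chr1:171281187-171281436, minus strand), with capitals as before.
Uros: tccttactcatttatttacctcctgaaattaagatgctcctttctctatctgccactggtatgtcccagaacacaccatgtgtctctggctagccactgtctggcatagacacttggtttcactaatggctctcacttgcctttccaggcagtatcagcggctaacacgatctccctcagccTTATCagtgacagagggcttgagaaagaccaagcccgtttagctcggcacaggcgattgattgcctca
Cpox: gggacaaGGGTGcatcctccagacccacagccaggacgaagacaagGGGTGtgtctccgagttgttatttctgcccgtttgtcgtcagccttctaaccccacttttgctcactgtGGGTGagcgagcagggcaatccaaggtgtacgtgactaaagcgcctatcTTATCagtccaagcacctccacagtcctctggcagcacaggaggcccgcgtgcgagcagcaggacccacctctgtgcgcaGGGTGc
Ppox: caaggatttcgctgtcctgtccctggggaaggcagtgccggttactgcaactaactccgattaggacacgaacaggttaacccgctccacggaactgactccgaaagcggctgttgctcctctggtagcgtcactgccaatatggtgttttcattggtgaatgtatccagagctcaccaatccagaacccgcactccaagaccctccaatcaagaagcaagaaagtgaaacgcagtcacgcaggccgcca
The GATAA match of this Uros start lies 68 bases before it, and that of Cpox 86 bases before it, as in Alas2. The window of the other annotated Uros start, which begins 6795 bases away, holds neither motif. Ppox holds neither motif in its window. Over the 12 windows of 8 members, some of which overlap, 3 held GATAA, 7 held CACCC and 2 held both, and TGANTCA, the core of NFE2 and AP-1 sites, was in 0, against 6.75% of all windows.

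Tfrc, on chromosome 16, was the brightest member. Its main probe set (1452661_at) read 3372, 2459, 3983 and 3859 in WT 1 to WT 4 and 2511, 3510.0, 4539 and 2876 in KO 1 to KO 4. The groups overlapped throughout, and the log2 difference was -0.04 ± 0.21 (SE), with a 95% interval from -0.46 to 0.39. A dimmer probe set (1422966_a_at) read 411, 341, 718 and 882 in WT hearts and 310.3, 626, 1167 and 626 in KO hearts, in the same order. It had the hearts in a similar order over a wider span, with an SD of 0.63 against 0.26 on the quantile-normalized log2 scale, and a difference of 0.17 ± 0.34. The third (1422967_a_at) gave 0.21 ± 0.31. The signs of these small values were not stable: that of the main probe set changed in 11 of 27 alternative fits.

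The array also holds 3 control probe sets for Tfrc, at its 3′ end, middle and 5′ end. Their signals ran from 226 to 858 at the 3′ end, from 37.2 to 137 in the middle and from 9.12 to 31.9 at the 5′ end. The ratio of the KO mean to the WT mean was 1.17, 0.851 and 1.20 in that order. WT 1, WT 2 and KO 1 were the 3 lowest hearts in 5 of the 6 Tfrc probe sets, the main one being the exception, with KO 4 below WT 1. Levels of different probe sets cannot be compared with each other, so the fall from the 3′ to the 5′ end is given as a description only.

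**Figure D2:**
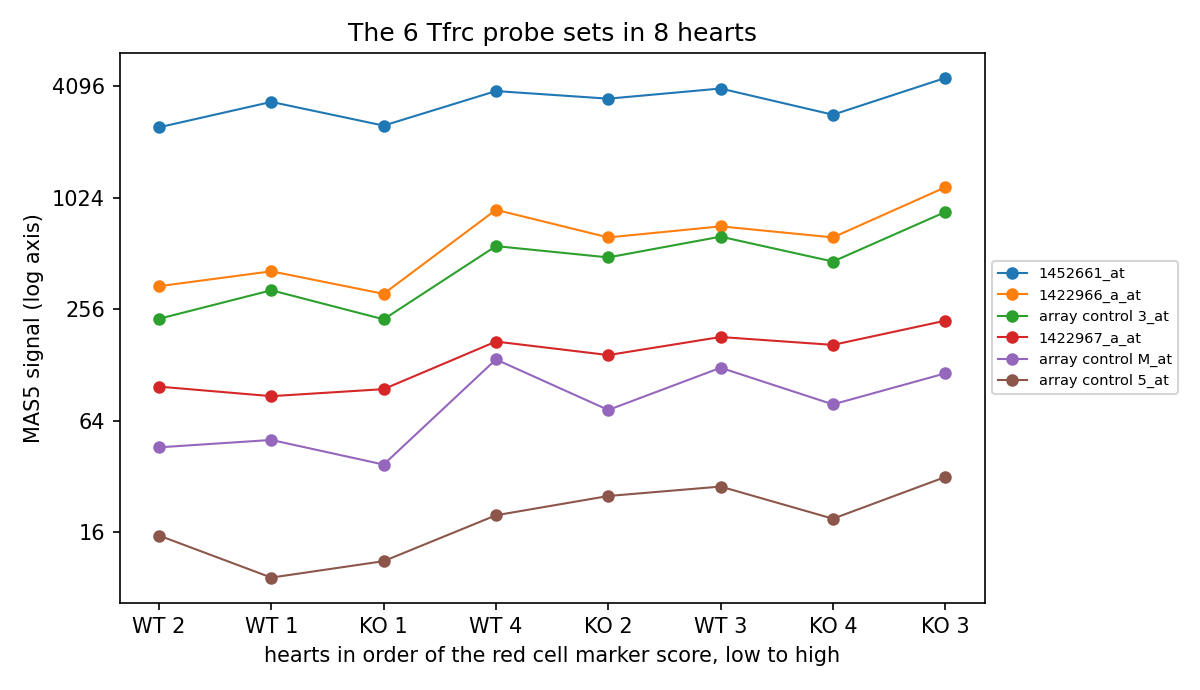
MAS5 signal on a log axis of the 6 Tfrc probe sets, with the 8 hearts placed in order of their red cell marker score from low to high and lines joining values of 1 probe set. The main probe set (1452661_at) spans 1.85-fold across hearts and the others 2.55-fold to 3.80-fold, and all step up between KO 1 and WT 4.

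With each gene taken by its brightest tested probe set, the median log2 difference of the 9 members was 0.50, with 8 higher and 1 lower in KO hearts. Over all 9126 genes the median was 0.02 and 54.6% were higher in KO hearts. Of the 16 tested probe sets 15 were higher in KO hearts, but in 16 of 16 the signals of the groups overlapped. Groups did not overlap for 0.454% of all probe sets. Without WT 3 the log2 differences were 0.90 for Alad, 0.55 for Uros, 0.78 for Urod and Ppox, and 0.71 for Fech. They were 0.39 for Cpox, 0.10 for Alas1 and 0.04 for Tfrc, and none of these was called. On quantile-normalized log2 signals, members other than Alas1 were positively correlated with each other across hearts, and Alas1 negatively with each of the other 8. The 9 directions are thus not separate observations.

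**Figure D3:**
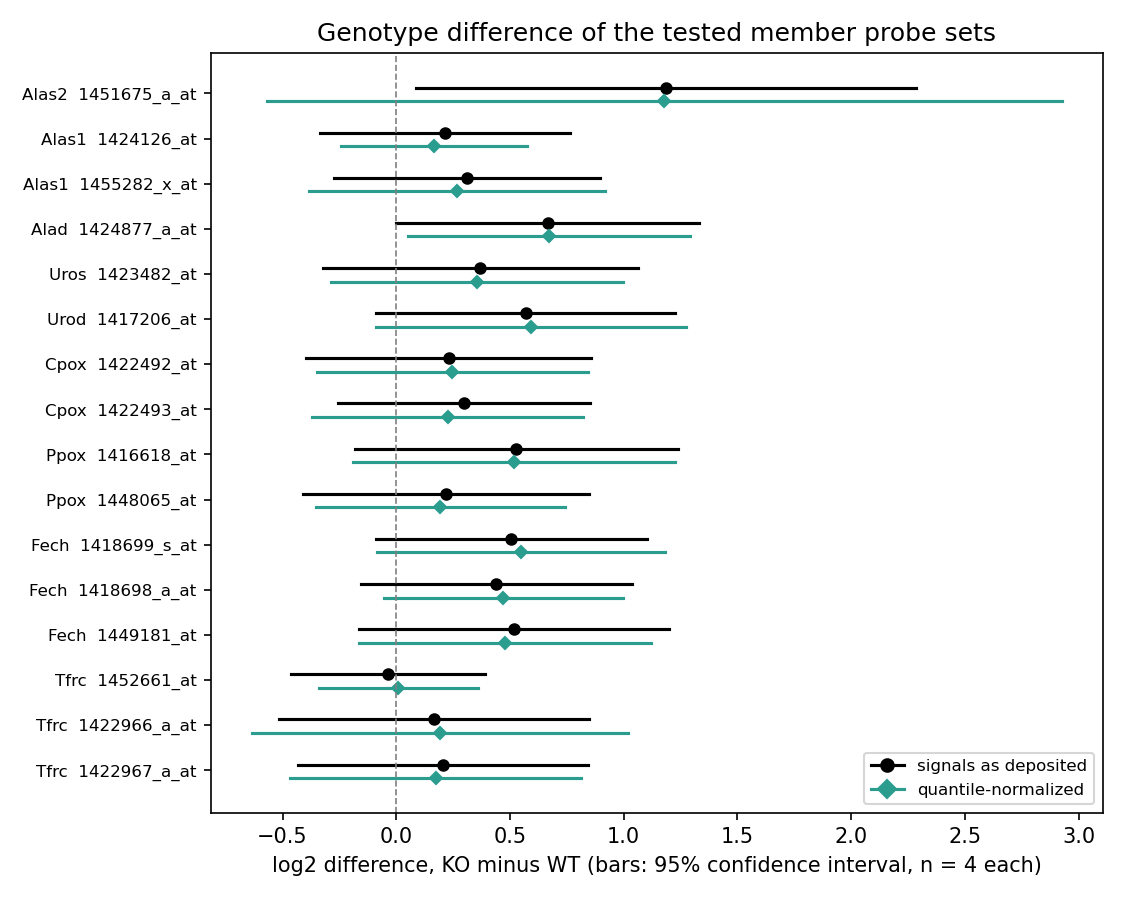
Log2 difference, KO minus WT, of the 16 tested probe sets with 95% confidence intervals (n = 4 hearts each), for signals as deposited (circles) and after quantile normalization (diamonds). Alas2 has the largest difference, 1.19 as deposited and 1.18 after normalization, and the widest interval, and Tfrc 1452661_at lies at -0.04 and 0.01.

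To see what the members vary with, each heart was given a red cell marker score, the mean over 18 markers of quantile-normalized log2 signals centred per gene. The list held globins, red cell transcription factors, membrane proteins and the erythropoietin receptor, and no member. The score was -0.83, -0.9998, 0.50 and -0.01 in WT 1 to WT 4 and -0.59, 0.24, 0.99 and 0.70 in KO 1 to KO 4. WT 1, WT 2 and KO 1 were low, and the other hearts lay from -0.01 upwards without a split by genotype. Of the 23 listed markers 18 were tested. The globin Hba-a1 was called Present on 0 arrays, and 4 had no probe set with their symbol alone. The summed signal of the markers ran from 14750 to 27577 in WT and from 17027 to 34297 in KO hearts. All 18 were higher on average in KO hearts, with a median of 0.69, and 0 were called. Embryonic globins were high in all hearts, with Hbb-bh1 at 5402 to 9119 and Hbb-y at 5452 to 9359, whereas Klf1 ran from 28.4 to 394 and Gata1 from 38.0 to 528. In RNA of whole hearts, more red cells and more of a transcript in each red cell cannot be told apart.

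Alas2 followed this score most closely. Its Pearson correlation over the 8 hearts was 0.996 and its Spearman correlation was 1, with an exact permutation p of 2.48e-05 and 4.96e-05, which became 0.0251 and 0.0301 after Benjamini-Hochberg adjustment over 9108 genes. It gained 2.01 log2 units per unit of the score. After quantile normalization, Ppox and Fech ordered the hearts exactly as the score did, unlike on signals as deposited, where KO 1 was lowest. Their correlations were 0.984 and 0.981, with adjusted exact permutation p of 0.0323 and 0.0251. Over all genes 26 of 9108 passed this test (0.285%). The permutation takes the 8 hearts as exchangeable and ignores their title numbers. The highest scores were all of hearts sharing a title number, so the p-values may be too small. The calls of Alas2, Ppox and Fech rest on that assumption. WT 1, WT 2 and KO 1 also lay apart from the other hearts on the score. The plan withheld p-values if hearts formed separate clusters, so these calls are given with that limit. On signals as deposited Ppox and Fech lost the call, with correlations of 0.970 and 0.963 and an adjusted exact permutation p of 0.126 each. The dimmer Ppox probe set (1448065_at) had a correlation of 0.435, while the other tested Fech probe sets had 0.979 and 0.953. The next were Uros at 0.953, Urod at 0.949 and Alad at 0.945, with adjusted exact permutation p from 0.0753 to 0.113, which missed the threshold. These 5 later enzymes gained 0.64 to 0.78 log2 units per unit of the score, far less than Alas2.

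Cpox and Tfrc were looser, with correlations of 0.862 and 0.794 (adjusted exact permutation p = 0.204 and 0.268). The dimmer Cpox probe set had 0.904, and the other tested Tfrc probe sets had 0.827 and 0.762. The second Alas1 probe set had -0.418, and the brighter one -0.442 (adjusted exact permutation p = 0.548). By their brightest probe sets, 6 of the 9 members reached a correlation of 0.9, against 126 of all 9126 tested genes (1.38%). Those 126 include 17 of the score's own markers. The 2 hearts farthest from the median score were WT 1 and WT 2. Without them the correlation was 0.992 for Alas2, 0.987 for Ppox and 0.981 for Fech, but 0.701 for Cpox, 0.596 for Tfrc and -0.09 for Alas1. Deviations were also taken from the mean of title number 541 or, for all other hearts, from their joint mean. On these deviations the correlation was 0.993 for Alas2, 0.962 for Ppox, 0.970 for Fech, 0.657 for Cpox, 0.257 for Tfrc and 0.268 for Alas1. The correlations of Cpox, Tfrc and Alas1, none of which was called, thus moved with the hearts used and with this centring. On signals as deposited Alas1 had a correlation of 0.08, so its sign depends on the scaling.

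**Figure D4:**
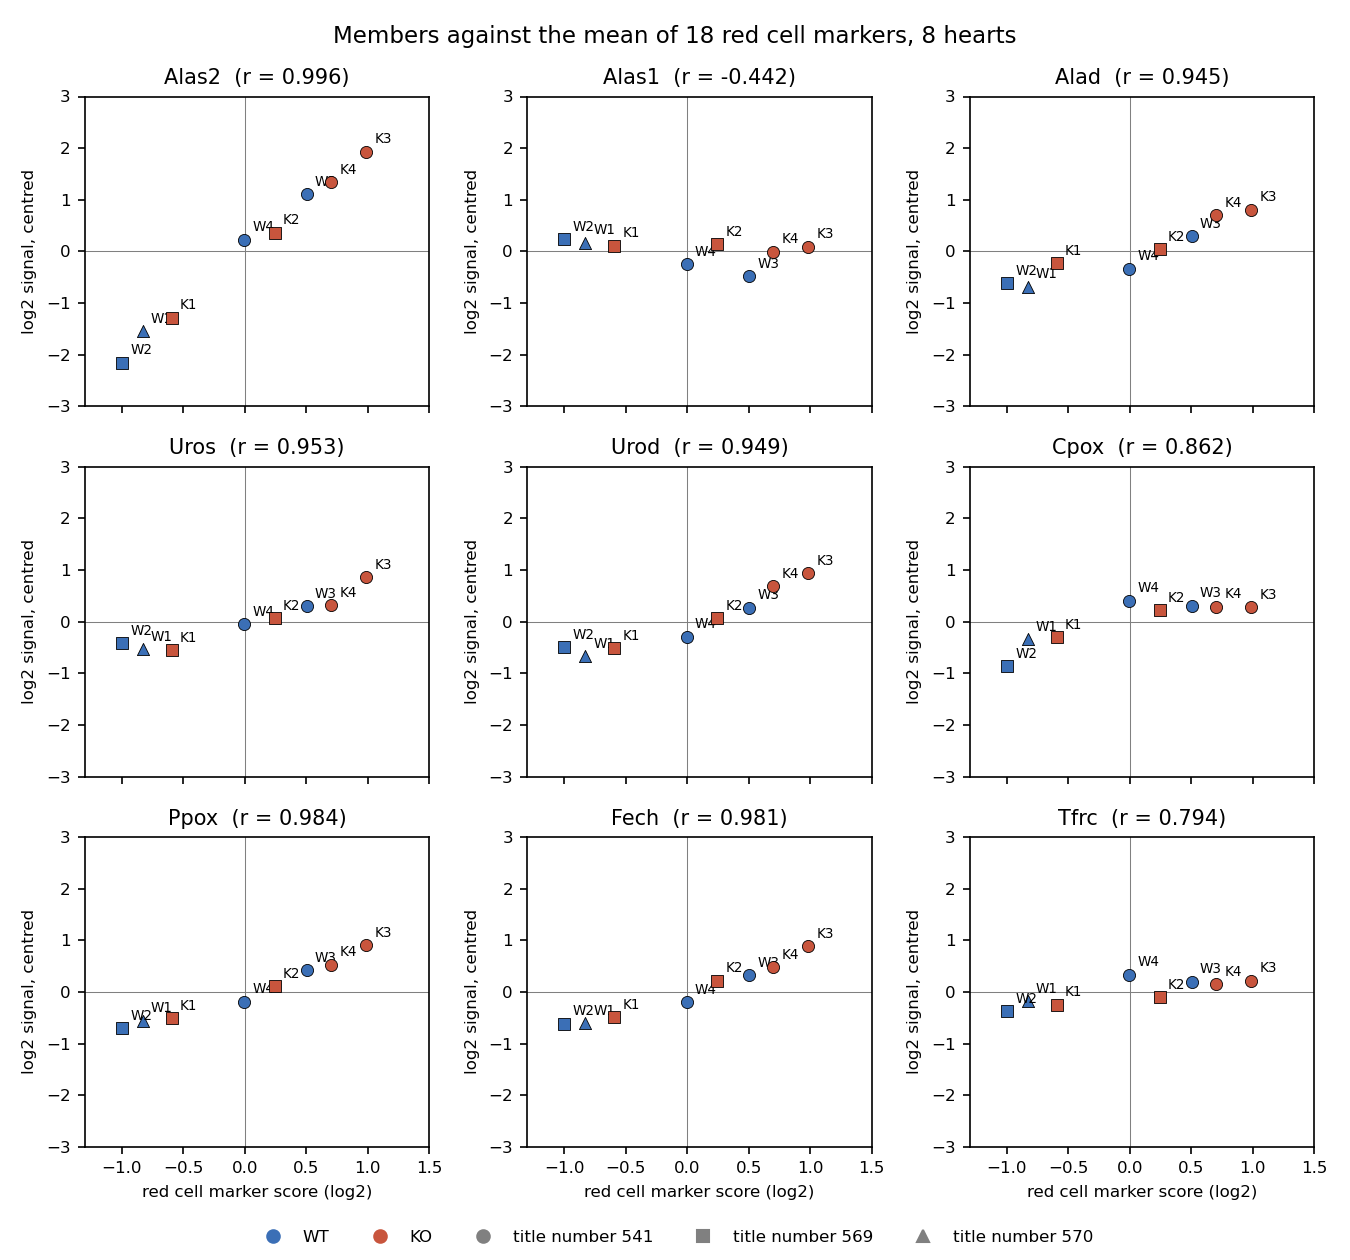
Quantile-normalized log2 signal of each gene, centred on its mean, against the red cell marker score (log2 units) for 8 hearts, with colour for genotype and symbol for title number. Alas2 gains 2.01 log2 units per unit of the score, Ppox and Fech lie along shallower lines, and Alas1 has a correlation of -0.442.

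Hearts of title number 541 had more of most members than the others. The log2 difference, number 541 minus the other hearts, was 2.21 for Alas2, from 0.53 to 0.74 for the other enzymes after the first step, 0.36 for Tfrc and -0.34 for Alas1. For Alas2 it was 2.36 among WT and 2.06 among KO hearts, larger than the genotype difference. Measures of RNA quality differed among the hearts too. The 5′ to 3′ signal ratio of beta-actin, from the deposited quality report, was 0.407, 0.390 and 0.401 in WT 3, KO 3 and KO 4, the hearts with the 3 highest red cell scores, and 0.483 to 0.527 in the others, with 0.517 in WT 4, the remaining heart of number 541. The Gapdh ratio was 0.694, 0.686 and 0.702 in WT 3, KO 3 and KO 4, and 0.724 to 0.775 in the others. The part of these ratios in the correlations was not tested.

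With the red cell score as a covariate in the quantile-normalized fit, the Alas2 genotype difference was -0.21 ± 0.15 (SE), against 1.18 without it. Alad went from 0.67 to 0.24, Urod from 0.59 to 0.11, Ppox from 0.52 to -0.00 and Fech from 0.55 to 0.07. Alas1 went from 0.17 to 0.34 and Tfrc from 0.01 to -0.23. No probe set of any gene was called in this fit with limma, where 947 had an unadjusted p below 0.05. The score was measured in the same hearts, and this fit was added after the data were seen. Alas2 had a correlation of 0.996 with the score. The fit thus leaves little of the Alas2 variation to genotype and cannot tell the score and genotype apart.

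The genes most like Alas2 across the 8 hearts, by Pearson correlation of quantile-normalized log2 signals, were Trim10, Nudt4, Mgst3, Ell2, Abcb10, Kel, Tent5c, Kcnn4, Ermap and Epb42, from 0.995 down to 0.990. Trim10, Kel, Ermap and Epb42 are on the red cell list, Kel and Ermap being blood group proteins and Epb42 a protein of the red cell membrane skeleton. Abcb10 is a transporter of the inner mitochondrial membrane known to stabilise the iron importer Slc25a37. Among 9125 genes Ppox ranked 25 by likeness to Alas2, Fech 35, Uros 64, Urod 94, Alad 97, Cpox 152, Tfrc 282 and Alas1 7086. The closest pair among the members was Ppox and Fech, with a correlation of 0.993. The genes most like Alas1 were Slc22a17, Hmgn3, Smyd2, Cd151 and Gpalpp1 (0.988 to 0.970), and those most like Tfrc were Poli, St7l, Rela, Atr and Errfi1 (0.996 to 0.961). None of the latter 10 is on the red cell list, which holds only 18 of the 9126 tested genes.

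A wider list of 43 genes of heme transport and breakdown, iron handling and iron-sulfur cluster assembly had 35 tested members. Of these 0 were called, 26 were higher and 9 lower in KO hearts, with a median log2 difference of 0.18. No tested member of the list had an unadjusted p below 0.05 in limma. The leading genes by that p on the higher side were Slc25a39, a mitochondrial carrier (0.47), Blvrb, a biliverdin reductase (0.69), Nfs1, the cysteine desulfurase of iron-sulfur assembly (0.53), and Slc25a37, which imports iron into mitochondria of red cell precursors (0.61). On the lower side they were Hmox1, which breaks heme down (-0.55), the heme transporter family member Flvcr2 (-0.40), the metal importer Slc39a14 (-0.24) and the iron regulatory protein gene Ireb2 (-0.17). Hmox1 read 124, 182, 213 and 195 in WT 1 to WT 4 and 96.9, 172, 141 and 72.7 in KO 1 to KO 4. Its groups overlapped through WT 1.

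The companions divided by their relation to the red cell score. Of the 35, 7 had a correlation of at least 0.9, namely Abcb10 (0.990), Blvrb (0.984), Fth1 (0.977), Slc25a37 (0.963), Abcb6 (0.962), Tmem14c (0.953) and Ncoa4 (0.934). Abcb6 and Tmem14c are known for porphyrin transport, Fth1 codes for a subunit of the iron store ferritin, and Ncoa4 sends ferritin to breakdown. Another 11 had a correlation below 0, as had 4574 of all 9126 tested genes, among them Flvcr2 (-0.786), Ireb2 (-0.505), Nfs1 (-0.265) and Hmox1 (-0.230). Nfs1 and Hmox1 thus did not follow the red cell markers.

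Markers of other cells varied with the red cell score or with Alas2 as well, some of them in the opposite direction. Heart muscle markers had correlations with the red cell score below 0 in 12 of 12 genes, and endothelial markers in 8 of 8, beside that share of all genes. The summed signal of the 12 heart muscle markers ran from 23679 to 47413 in WT and from 25124 to 46533 in KO hearts, led by Myl2 and Myl7, and their median log2 difference was -0.06. For the 8 endothelial markers, led by Tek and Npr3, it ran from 2851 to 4843 and from 2016 to 4828, with a median of -0.14. Megakaryocyte and platelet markers, led by Pf4 and Ppbp, ran from 144 to 1155 and from 272 to 1177, with a median of 0.47 over 6 tested genes. Alas2 had a correlation of 0.823 with their score and of 0.785 with that of macrophages, whose 7 tested genes, led by Mrc1 and Lyz2, had a median of 0.33. With 1 heart left out, the megakaryocyte median ran from 0.20 (without KO 3) to 0.84 (without WT 3), and the macrophage median from -0.05 (without KO 3) to 0.48 (without KO 1). Liver and endoderm markers ran from 69.6 to 9141 in WT and from 118 to 303 in KO hearts, led by Afp and Apoa2, and their median of -1.01 over 8 tested genes became 0.35 without WT 3. Alb, Fgb, Ambp, Apob, Fga and Ahsg were called Present on at most 2 arrays. Dividing cell markers, led by Top2a and Mki67, had a median of 0.05 over 9 tested genes and a score correlation of 0.573 with Alas2. The part of these cells in the members' signals was not tested.

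**Figure D5:**
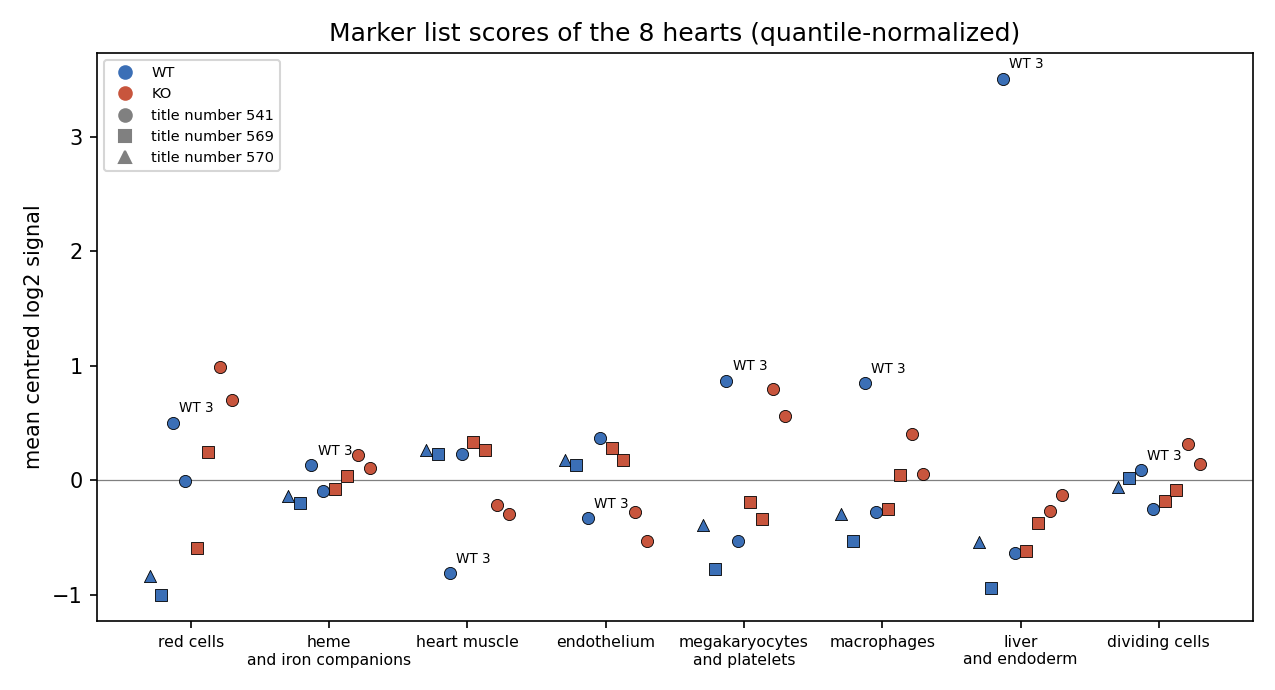
Mean centred log2 signal (quantile-normalized) of the tested genes of 8 marker lists in each heart, with colour for genotype and symbol for title number. WT 3 stands at 3.51 on the liver and endoderm list and at -0.81 on the heart muscle list, and the red cell scores of the genotypes overlap.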

How the data were processed

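The 8 arrays each measured RNA of 1 heart (4 KO, 4 WT). Per the file headers, the deposited signals are linear MAS5 intensity values, equal in both deposited tables to within 5e-07. The software version, scaling target and filters are not given in the sources used here. Detection calls come from the deposited export. The authors' deposited fold column holds a score that is WT over KO with a sign, and the deposited p-value matches an unequal-variance test on linear signals to within 2.51e-09. Per the file headers, the deposited quality report lists each array's fraction of Present calls and the 5′ to 3′ ratio of control transcripts. Arrays carry no read depth, and the number of hearts limits the precision.

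The genotypes were compared on log2(signal + 16), without normalization or covariates, by limma's lmFit and trended eBayes (limma 3.58.1 under R 4.3.3). Probe sets called Present on at least 3 arrays entered, array controls left out, 16292 in all, and those with a Benjamini-Hochberg adjusted p below 0.05 were called. The script was tested on simulated data. Of 22690 probe sets, 20393 had 1 symbol in the platform annotation, 691 several and 1606 none. Genes with several tested probe sets were represented by the brightest on average. Correlations used exact permutation tests over 8 hearts (SciPy 1.17.1), which take all hearts as exchangeable and ignore title numbers. The planned adjustment of these tests over the 9 members was replaced by one over 9108 genes, all tested genes other than the score's markers. The contrast of Alas2 and Alas1 used an exact two-sided permutation test over 70 assignments. Promoter windows and gene positions are from RefSeq tables (GRCm38.p6), with windows for 8 of the 9 members. Alternatives were quantile normalization, median centring, other pseudocounts and filters, the title number as a block, number 541 alone, no intensity trend and each heart left out. Hearts were numbered in accession order, and the numbers pair nothing.

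The members and lists were chosen with earlier results of these data known. All members were named with every probe set. Of the wider list, the 4 genes in each direction with the smallest unadjusted p were named. Of likeness, 10 genes were named for Alas2 and 5 each for Alas1 and Tfrc, and of each cell type list the 2 most abundant genes. Companions named for a correlation with the score were chosen after their values were seen. Replicates are separate hearts, per the labels.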

Additional observations from a re-analysis of the deposited data

Results flagged for a closer look

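Among 32 groups of 4 hearts checked (the 16 tested probe sets in each genotype), 1 held a heart far from the others, where chance gives about 1 in 20 groups. The Urod signal of WT 3 was 856.3, while the other WT hearts ran from 448.2 to 505.1. The gap was 0.861 of the whole range, above Dixon's limit for 4 samples. WT 3 is the heart with high signals of liver and endoderm genes, and its red cell score was the highest of the WT hearts.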

How the results depend on the processing

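Of 431 values of member probe sets under alternative settings, 429 stayed on the same side of the threshold, and both others were Alas2, called without WT 3 (1.78, in a fit with infinite prior degrees of freedom) and without KO 1 (1.91). The sign changed in 28, of which 11 were of Tfrc 1452661_at. The number of probe sets called over the whole array was 0, but 2 with probe sets Present on all 8 arrays, 40 with the title number as a block, 60 in number 541 alone, and from 0 to 72 with 1 heart left out. Calls of Alas2 were lost after quantile normalization with the same hearts left out. On signals as deposited the correlations with the red cell score missed the threshold for Ppox (0.970) and Fech (0.963), with an adjusted exact permutation p of 0.126 each. Without the 2 farthest hearts, correlations moved by more than 0.1 for Cpox (0.701), Tfrc (0.596) and Alas1 (-0.091). As deviations from the mean of number 541 or the joint mean of the others, they moved for Cpox (0.657), Tfrc (0.257) and Alas1 (0.268). The contrast of Alas2 and Alas1 stayed above 0 and missed the threshold in every alternative run, where number 541 alone could not reach it (smallest possible exact permutation p = 0.333). With 1 heart left out, the median of the wider list ran from 0.01 to 0.24, of red cell markers from 0.38 to 1.10 and of liver and endoderm markers from -1.47 to 0.35. The causes were not tested. No paired analysis was possible because the replicate numbers are names given in accession order.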
